A study of Mus musculus with 6 samples.

Results

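Transcripts of the proteasome and the immunoproteasome were compared between the kidneys of mice with experimental calcium oxalate stones and control kidneys. The members were all rows of the expression table whose gene symbol begins with Psm, a letter from a to g and a digit, which gave 50 of the 17933 genes. They comprise the 14 standard genes of the 20S core, 3 inducible catalytic subunits, 17 genes of the 19S cap, 7 assembly chaperones, 5 activators and 1 inhibitor. The remaining members are Psma8, a testis form of an alpha subunit, and Psmc3ip and Psme3ip1, which carry a proteasome name and are not subunits: Psmc3ip is a meiotic recombination factor and Psme3ip1 binds an activator. Psmb11, the thymus catalytic subunit, matched no row.

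The proteasome degrades proteins that carry ubiquitin chains. Its 20S core is a barrel of alpha and beta rings, with the active sites on the beta subunits Psmb6, Psmb7 and Psmb5, and the 19S cap recognises, unfolds and feeds in the substrates. Cells exposed to interferon gamma make Psmb9, Psmb10 and Psmb8 in place of these subunits and build the immunoproteasome, whose peptides are favoured for display on MHC class I, and leukocytes carry it without stimulation. The PA28 activator, made of Psme1 and Psme2, is induced by the same cytokine and opens the core without ubiquitin.

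The samples were kidney tissue of male C57BL/6 mice, 6 to 8 weeks old and weighing 24 to 26 g, with 3 samples per group. Stone mice received glyoxylic acid, a precursor of oxalate, by intraperitoneal injection at 120 mg/kg once daily, and were sampled at day 12. Control mice received the same volume of saline, and both groups are labelled wild type. The study set out to find genes that differ between stone and control kidneys, and its title names EZH2, the macrophage-to-myofibroblast transition and kidney fibrosis. The labels number the samples and do not say that each came from a separate mouse, so a p-value here reflects only the variation among these samples, which could be technical.

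Expression was given as FPKM, fragments scaled by transcript length and by the sample's total, so levels of different genes are comparable per length. The FPKM of a sample summed to between 711768 and 758514 in controls and between 609705 and 613885 in stone samples. The kidney androgen-regulated gene Kap held 19.3 to 23.2% of the sum in controls and 1.18 to 2.26% in stone samples, so direction calls depend on how samples are scaled and are given below under several scalings. Pearson's r of log2(FPKM + 1) over tested genes was 0.979 to 0.991 within groups and 0.931 to 0.950 between them. Defining genes of the kidney were present: 8 proximal tubule markers summed to between 3741 and 4149 FPKM in controls and between 2634 and 3161 FPKM in stone samples, with 1 called higher and 4 lower. A fold change is the difference of group means of log2(FPKM + 1), stone minus control, and a gene is called when limma's adjusted p over the 12319 genes tested is below 0.05.

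As deposited, most standard proteasome genes were not called. Psmb10 and Psmb8 of the immunoproteasome and the PA28 genes Psme1 and Psme2 were called higher, and Psmb9 was not called. Of the 48 members tested, 12 were called: 7 were called higher in stone kidneys (Psma5, Psmb8, Psmb10, Psmd8, Psme1, Psme2 and Psmg3), 5 were called lower (Psmb7, Psmc2, Psmc4, Psmd14 and Psme4) and 36 were not called. Over all tested genes limma called 57.4%, with 43.5% higher and 13.9% lower. Leaving out 1 sample gave 5 to 8 members higher and 2 to 6 lower, with 2 lower without control 1 or stone 2 and 3 lower without control 2, stone 1 or stone 3. All 3 stone samples lay above all 3 controls in 10 members and below them in 8, against 49.8% and 16.5% of all tested genes. The median fold change of the members was -0.02 on the log2 scale, beside 0.21 for all tested genes, and 40 of 48 members lay below the all-gene median. The members also spread less around their own mean: the standard deviation of their fold changes was 0.235 on the log2 scale, beside 0.617 for all tested genes. The set of all tested genes reaches down to a mean of 1 FPKM, and the spread was not compared at like levels. As deposited, a change under 0.2 in size was seen in 36 of the 48 members and in 32.3% of all tested genes. This contrast depended on the scaling, as given below. Only 1 member, Psmb10, changed by 1 or more, as did 9.59% of all genes.

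**Figure D1:**
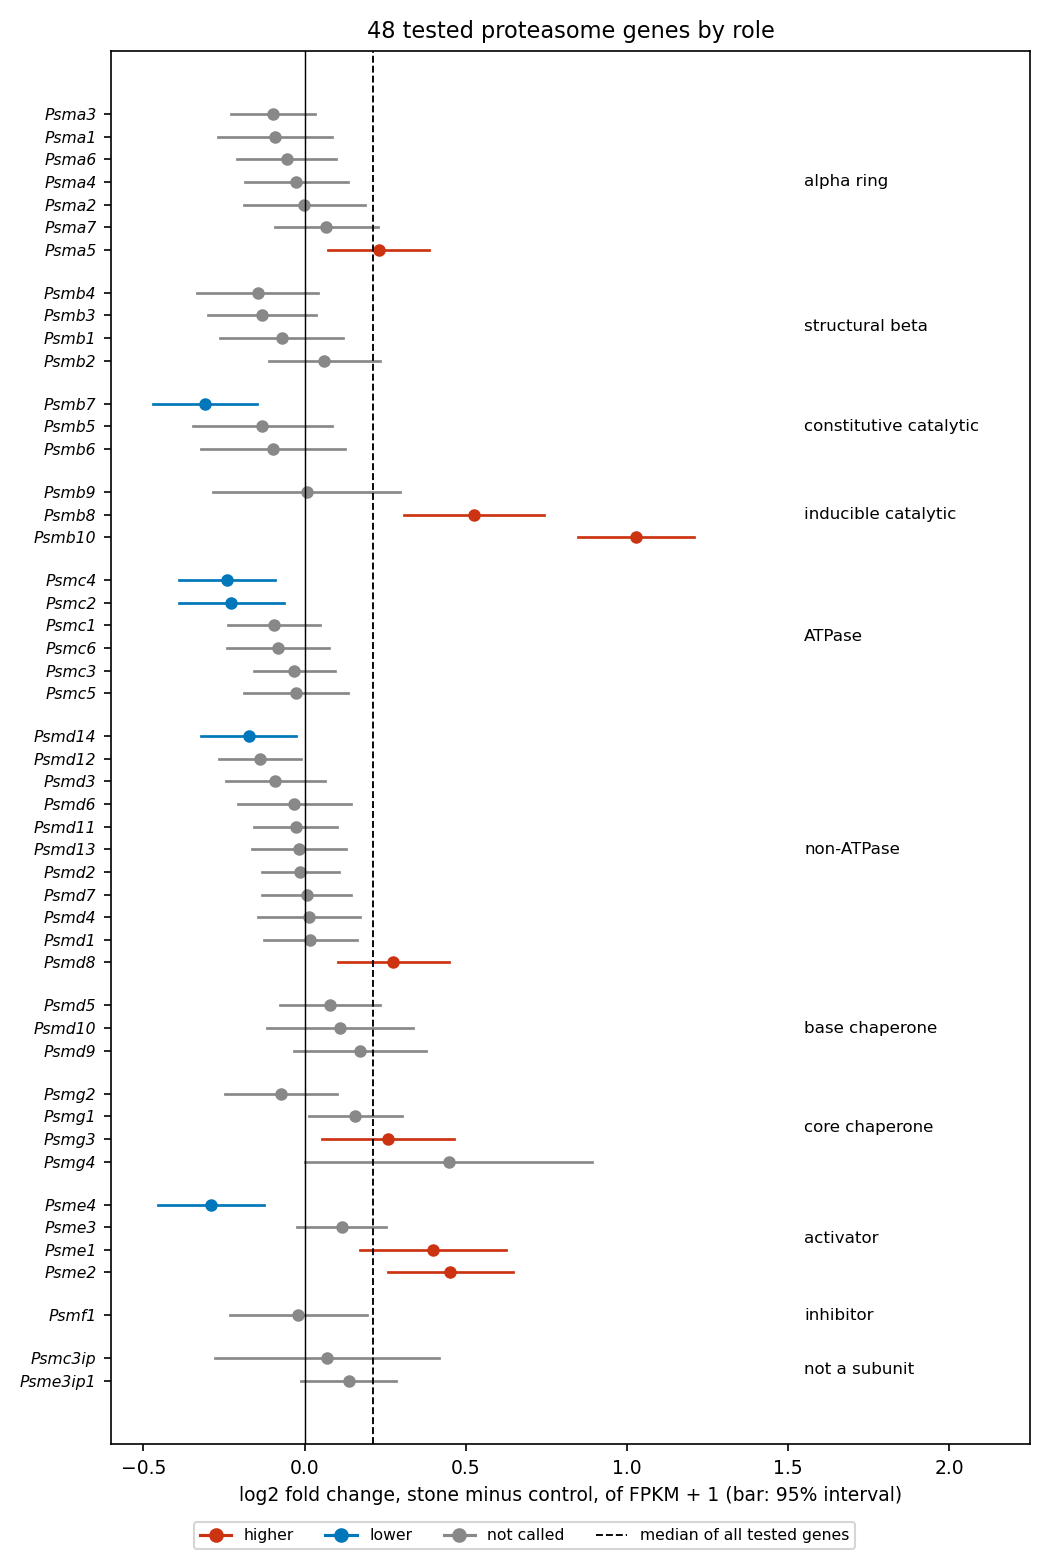
Log2 fold change of FPKM + 1, stone minus control (x axis), for the 48 tested members grouped by role; points are limma estimates, bars 95% intervals, colours the call, and the dashed line the median of all tested genes at 0.21. Most members lie between -0.2 and 0.2, Psmb10 stands farthest to the right at 1.03, and Psmb9 lies at 0.01.

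The direction of the standard genes followed the scaling. As deposited, 1 of the 14 standard core genes was called higher and 1 lower, and of the 17 cap genes 1 was called higher and 3 lower. With median-of-ratios scaling, which moves the all-gene median to -0.01, limma called 0 standard core genes higher and 10 lower, and 0 cap genes higher and 16 lower. With all samples scaled to the same FPKM sum, which moves the all-gene median to 0.45, 9 core genes and 12 cap genes were called higher and 0 lower. Each of these counts of 0 from limma was also 0 at an unadjusted p below 0.05. Over all members these scalings gave 2 higher and 29 lower with median of ratios, where 22.5% of all genes were higher and 26.2% lower, and 35 higher and 0 lower with equal sums, where 68.5% and 6.47% were. Quantile normalization gave 5 higher and 8 lower, beside 22.3% and 25.5% of all genes. Relative to the all-gene median of each scaling, 40 of 48 members lay below it with equal sums and 41 with median of ratios, but 28 with quantile normalization. A change under 0.2 in size was seen in 15 members with median of ratios, beside 39.1% of all genes. With equal sums it was seen in 16 members, beside 17.9%, and with quantile normalization in 33, beside 40.3%. With Kap left out of the sums made equal, the members' median log2 change was -0.05, beside 0.18 for all genes. Of the 48 members, 40 then lay below the all-gene median and 46 kept their call as deposited. Of those called in either setting, 0 changed sign. The direction of the standard proteasome genes as a whole thus depends on the scaling, and with equal sums on whether Kap is counted.

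**Figure D2:**
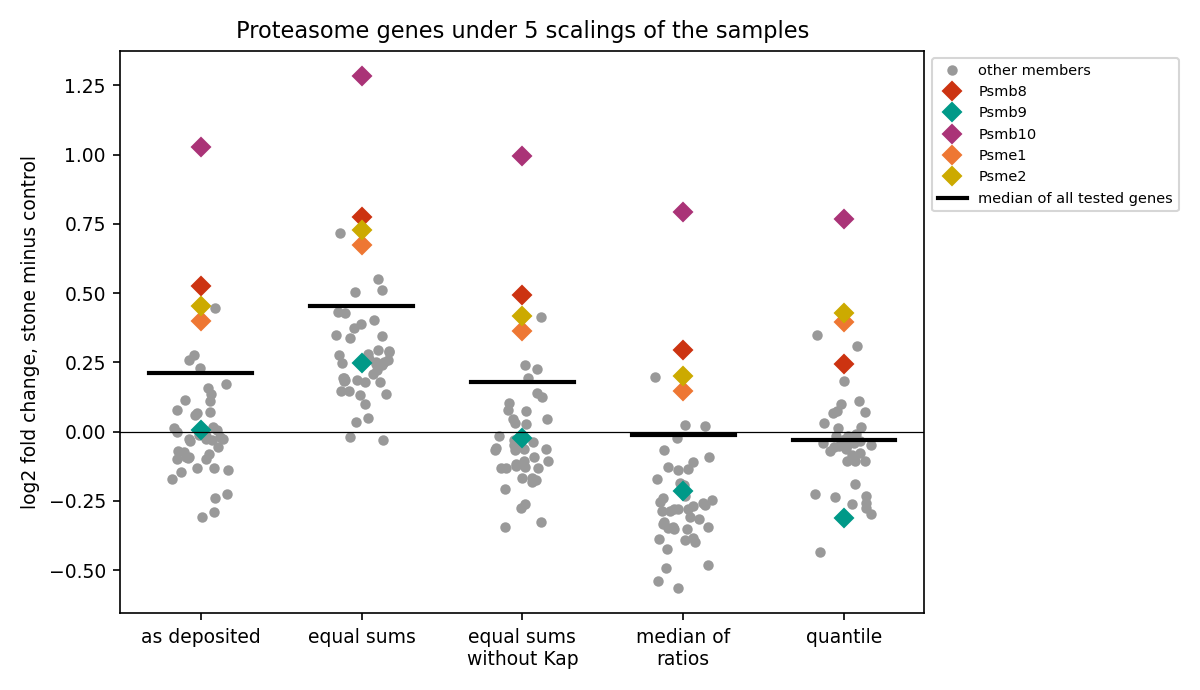
Log2 fold change, stone minus control (y axis), of the 48 tested members under 5 scalings of the samples (x axis); each grey point is a member, diamonds mark 3 inducible catalytic and 2 PA28 genes, and black bars the median of all tested genes. The grey cloud moves with the scaling, whereas Psmb10 is at 0.77 or more and Psmb8 at 0.24 or more in all 5.

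Among the inducible catalytic subunits, Psmb10 and Psmb8 rose and Psmb9 was not called. Psmb10, the inducible subunit with trypsin-like activity (8:105935728-105938392, minus strand, GRCm38.p6), had levels of 7.19, 7.90 and 7.65 FPKM in the controls, given here and hereafter in the order of sample number, and of 15.2, 16.9 and 17.5 FPKM in the stone samples. Every stone sample was thus well above every control. Its mean rose from 7.58 ± 0.360 to 16.5 ± 1.21 FPKM (SD, n = 3), 2.18-fold, with a log2 change of 1.03 (SE 0.0767, limma adjusted p = 8.72e-05), higher than 92.9% of tested genes.

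Psmb8, the inducible chymotrypsin-like subunit (17:34198195-34201454, plus strand), had 7.17, 7.13 and 7.18 FPKM in controls and 9.47, 10.8 and 12.1 FPKM in stone samples. The controls were nearly alike, the stone samples spread more, and the groups did not overlap. The mean rose from 7.16 ± 0.0265 to 10.8 ± 1.33 FPKM (SD, n = 3), a log2 change of 0.53 (SE 0.0927, limma adjusted p = 0.00288). Both genes were called higher in all 15 alternative analyses, including those that left out 1 sample. With median of ratios their log2 changes were 0.79 for Psmb10 and 0.30 for Psmb8, and with quantile normalization 0.77 and 0.24.

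Psmb9 (17:34182030-34187330, minus strand), the inducible subunit that replaces the caspase-like Psmb6, had 5.82, 7.13 and 5.58 FPKM in controls and 7.07, 5.29 and 6.28 FPKM in stone samples. The groups overlapped almost completely. The means were 6.18 ± 0.834 and 6.21 ± 0.892 FPKM (SD, n = 3), with a log2 difference of 0.01 and a 95% interval from -0.28 to 0.30 (limma adjusted p = 0.970). Psmb9 was called in 0 of 15 alternatives, and its difference ranged in sign, from -0.31 with quantile normalization to 0.25 with equal sums.

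Since Psmb9 was the exception, the inducible genes were also set against each other within each sample, a comparison chosen after their values were seen. The ratio of Psmb10 to Psmb9 FPKM was 1.24, 1.11 and 1.37 in controls and 2.14, 3.20 and 2.78 in stone samples. The ratio of Psmb8 to Psmb9 was 1.23, 1.00 and 1.29 in controls and 1.34, 2.04 and 1.93 in stone samples. All stone ratios lay above all control ratios in both pairs, with log2 differences of 1.11 (SE 0.191) and 0.58 (SE 0.221). Given the levels of these genes above, the ratios could not overlap between groups. Neither their separation nor the p-value that follows is thus further support. The exact permutation test, two-sided, gave p = 0.1 for each, 0.1 after adjustment over the 2 pairs, which is the smallest value 3 against 3 samples allow.

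The constitutive subunits that the inducible ones replace were far more abundant per length. Psmb7, the constitutive trypsin-like subunit (2:38588046-38643952, minus strand), had 155, 171 and 154 FPKM in controls and 134, 131 and 122 FPKM in stone samples, without overlap. Its mean fell from 160 ± 9.34 to 129 ± 6.23 FPKM (SD, n = 3), a log2 change of -0.31 (SE 0.0682, limma adjusted p = 0.00732), the lowest of the 48 members. This call was kept in 14 of 15 alternatives and lost with equal sums, where the change was -0.03 (limma adjusted p = 0.681). Its exons overlap those of Nek6, which went from a mean of 8.05 to 16.9 FPKM.

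Psmb5, the chymotrypsin-like subunit (14:54614120-54617995, minus strand), had 151, 169 and 132 FPKM in controls and 133, 139 and 139 FPKM in stone samples. Psmb6, the caspase-like subunit (11:70525324-70527858, plus strand), had 114, 128 and 98.5 FPKM in controls and 108, 105 and 104 FPKM in stone samples. For both genes the stone samples fell inside the wider control range. The log2 differences were -0.13 for Psmb5 (95% interval -0.35 to 0.09, limma adjusted p = 0.255) and -0.10 for Psmb6 (-0.32 to 0.13, limma adjusted p = 0.405). With median of ratios both were called lower, at -0.39 and -0.35, and Psmb5 was also called lower when control sample 3 was left out.

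**Figure D3:**
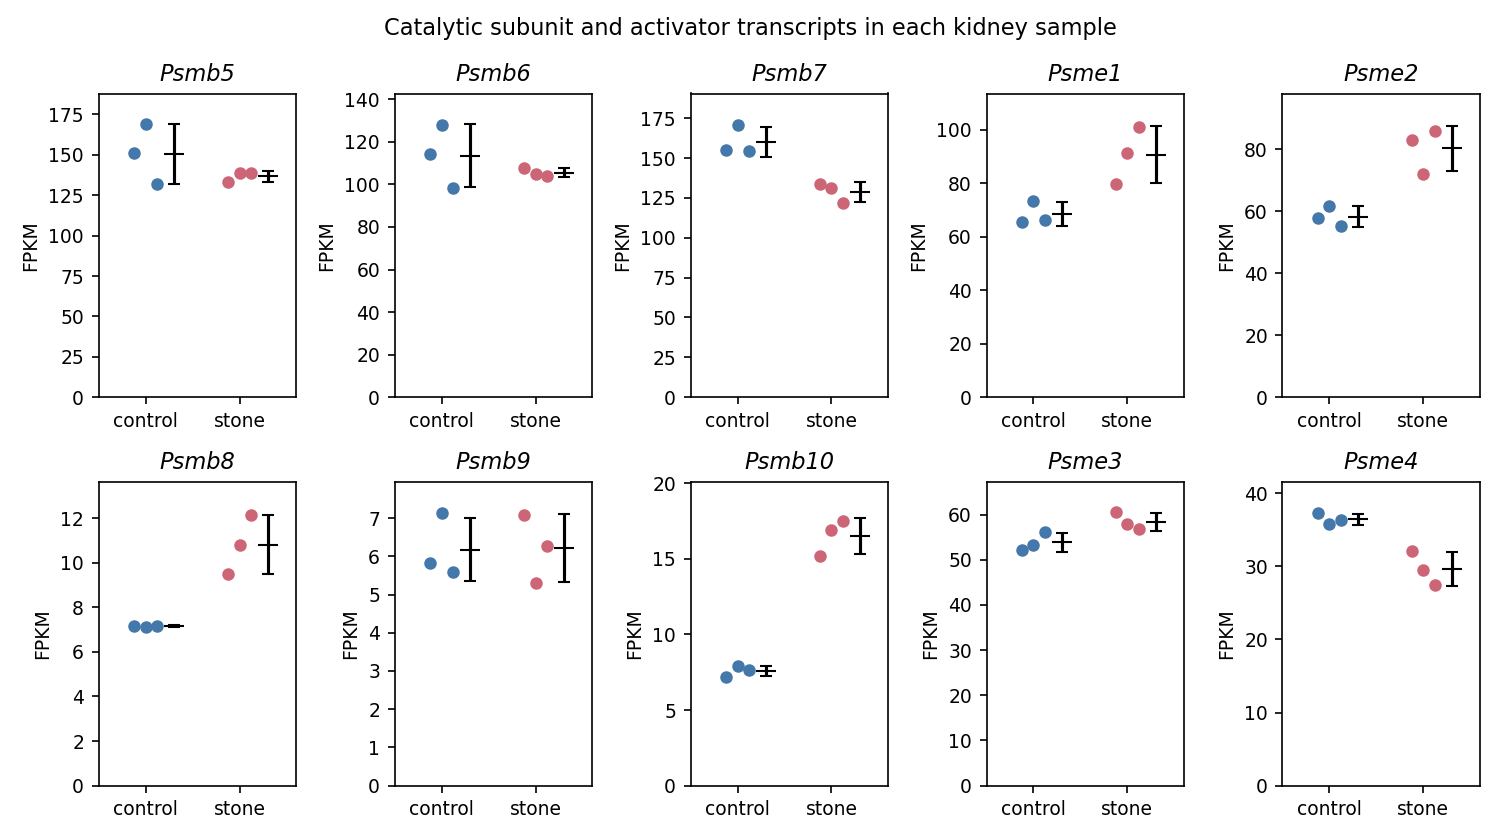
FPKM (y axis, from 0) of the constitutive (Psmb5, Psmb6, Psmb7) and inducible (Psmb8, Psmb9, Psmb10) catalytic genes and of the activator genes in each of 3 control and 3 stone samples; points are samples, bars mean ± SD. Groups are apart for Psmb7, Psmb8, Psmb10, Psme1, Psme2, Psme3 and Psme4 and overlap for Psmb5, Psmb6 and Psmb9.

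Each inducible gene was then divided by the constitutive gene whose place it takes, within each sample, which cancels any factor applied to a whole sample. Psmb10 amounted to 4.65, 4.63 and 4.96% of Psmb7 in controls and to 11.3, 12.9 and 14.3% in stone samples. Psmb8 amounted to 4.75, 4.22 and 5.44% of Psmb5 in controls and to 7.13, 7.77 and 8.74% in stone samples. In both pairs the lowest stone sample exceeded the highest control. Given the levels of these genes above, the ratios of neither pair could overlap between groups. Their separation, and the p-values of these pairs below, are thus no further support.

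The group means were 4.74 ± 0.185 and 12.9 ± 1.50% for Psmb10 to Psmb7 and 4.80 ± 0.609 and 7.88 ± 0.815% for Psmb8 to Psmb5 (SD, n = 3). The geometric ratio rose 2.70-fold in the first pair (log2 difference 1.43, SE 0.103) and 1.64-fold in the other (0.72, SE 0.136). Psmb9 amounted to 5.09, 5.57 and 5.66% of Psmb6 in controls and to 6.56, 5.05 and 6.05% in stone samples, which overlap, with a log2 difference of 0.11 (SE 0.121). Quantile normalization, which does not act by a factor, gave differences of 1.00 for Psmb10 to Psmb7, 0.29 for Psmb8 to Psmb5 and -0.26 for Psmb9 to Psmb6, beside 1.34, 0.66 and 0.10 as deposited on the same log2(FPKM + 1) scale. The sign of the Psmb9 pair thus turned with it, and in the other pairs the stone samples still lay above all controls.

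By the exact permutation test, two-sided, p was 0.1 for Psmb10 to Psmb7 and for Psmb8 to Psmb5, 0.15 for each after adjustment over the 3 pairs, and 0.5 for Psmb9 to Psmb6. With 3 samples against 3 the test cannot go below 0.1, so none of the 3 pairs could pass a threshold of 0.05. Together the inducible genes held 4.58, 4.53 and 5.04% of the FPKM of the 6 catalytic genes in controls and 7.80, 8.09 and 8.96% in stone samples. The inducible share was thus higher in each stone sample than in any control, and the constitutive genes still held the larger share in all 6 samples.

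**Figure D4:**
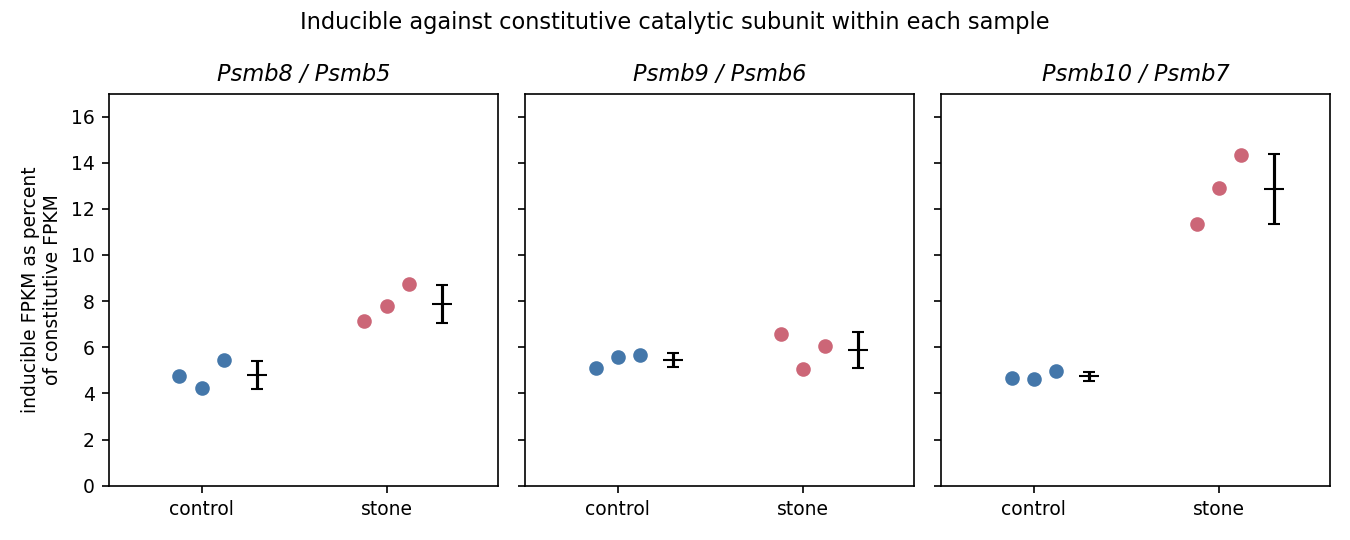
FPKM of each inducible catalytic gene as a percentage of the constitutive gene it replaces (y axis, from 0) in 3 control and 3 stone samples; points are samples, bars mean ± SD. Psmb10 to Psmb7 moves from about 4.74 to 12.9% and Psmb8 to Psmb5 from 4.80 to 7.88%, while Psmb9 to Psmb6 overlaps between groups.

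The promoters of the catalytic genes other than Psmb7, for which the table has no window, were read from RefSeq (GRCm38.p6) in windows from 250 bases before to 50 bases after the start, since the 3 inducible genes did not move alike. Psmb8 and Psmb9 lie near each other in the MHC region of chromosome 17, with the start of Tap1 between them. Tap1 encodes a subunit of the transporter that carries peptides to MHC class I, and Psmb9 shares a divergent promoter with it. The 225 bases between the starts of Psmb9 and Tap1 (17:34187331-34187555) are shown because Psmb9 and Tap1 were both not called. They are written in the direction of Psmb9, with the single CCAAT box, read as ATTGG on this strand, in capitals.

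Psmb9 to Tap1: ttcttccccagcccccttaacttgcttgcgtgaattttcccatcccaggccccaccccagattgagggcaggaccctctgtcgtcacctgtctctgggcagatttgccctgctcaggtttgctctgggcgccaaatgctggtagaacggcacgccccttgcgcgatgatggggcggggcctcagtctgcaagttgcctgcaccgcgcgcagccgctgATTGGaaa

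Tap1 had 4.08, 4.00 and 3.51 FPKM in controls and 3.71, 5.20 and 4.86 FPKM in stone samples, which overlap (log2 difference 0.19, limma adjusted p = 0.210), and it was called higher with equal sums (0.42). The exons of Psmb9 and Tap1 overlap in the annotation, and the sources used here do not say whether strand was used in assigning fragments, so those of one gene may count for the other. In all, 11 of the 50 members have exons that overlap those of a protein-coding gene.

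Motifs were searched on both strands of 46 windows of 42 members and of all 32817 windows. The interferon gamma-activated site TTCNNNGAA was found in 8.29% of all windows and in 3 member windows, those of Psmb8, Psmd2 and Psmg1. The interferon-stimulated response element core (GAAA, any 2 bases, GAAA) was in 3.43% of all windows and in 5 member windows (Psmb3, Psmd4, Psmd9, Psme1 and Psmg4). The antioxidant response element core TGACNNNGC was in 12.4% of all windows and in 6 member windows (Psmb5, Psmb6, Psmc6, Psmd12, Psmd9 and Psme4). The CCAAT box was in 37.4% of all windows and in 15 member windows, including those of 5 of the 7 alpha ring genes. No matches of different motifs overlapped in the member windows. Thus members with each interferon motif were found among called and uncalled genes alike, and the window of Psmb10, the member with the largest change, held none of the 4 motifs. The stretches below show the matches in the genes described here, motif in capitals, 5′ to 3′ on the strand of the gene. They are the activated site of Psmb8 and the response element of Psme1 (as TTTC on this strand, after the start). The antioxidant elements of the constitutive Psmb5 and Psmb6 follow. The Psmb6 window was set on another start than the first base of its gene span (11:70525324-70527858). The Psmb6 stretch lies before that window's start but inside the gene span.

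Psmb8, 17:34198083-34198121, bases 97 to 89 before the start: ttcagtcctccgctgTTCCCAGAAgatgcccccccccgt
Psme1, 14:55578493-55578522, bases 10 to 19 after the start: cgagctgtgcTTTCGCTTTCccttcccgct
Psmb5, 14:54618019-54618057, bases 47 to 39 before the start: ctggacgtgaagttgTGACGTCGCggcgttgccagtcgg
Psmb6, 11:70525333-70525356, bases 9 to 1 before the RefSeq start: gcggactaaagagagTGACGGAGC

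Among the activators, Psme1 and Psme2 were called higher as deposited, Psme4 was called lower and Psme3 was not called. Psme1, which encodes PA28 alpha (14:55578494-55581527, plus strand), had 65.4, 73.4 and 66.2 FPKM in controls and 79.8, 91.3 and 101 FPKM in stone samples. Psme2, which encodes PA28 beta and lies beside it (14:55587440-55591101, minus strand), had 57.9, 61.8 and 55.3 FPKM in controls and 82.9, 72.2 and 85.9 FPKM in stone samples. In neither gene did the groups overlap, and the lowest stone sample was sample 1 for Psme1 and sample 2 for Psme2. The log2 changes were 0.40 for Psme1 (SE 0.0958, limma adjusted p = 0.0104) and 0.45 for Psme2 (SE 0.0821, limma adjusted p = 0.00325). Both calls held in 14 of 15 alternatives and were lost with median of ratios, at 0.14 (limma adjusted p = 0.234) and 0.20 (0.124). The exons of Psme1 overlap those of Emc9, which had mean levels of 14.6 and 12.5 FPKM.

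Psme4, which encodes PA200, a nuclear activator linked to histone turnover, had 37.3, 35.8 and 36.3 FPKM in controls and 32.1, 29.5 and 27.4 FPKM in stone samples. All stone samples were lower than all controls, with a log2 change of -0.29 (SE 0.0702, limma adjusted p = 0.0105). The call held in 14 of 15 alternatives and was lost with equal sums, at -0.02 (limma adjusted p = 0.821). Psme3, the nuclear PA28 gamma, had 52.3, 53.2 and 56.2 FPKM in controls and 60.7, 58.0 and 56.7 FPKM in stone samples, just apart, and was not called (log2 difference 0.11, limma adjusted p = 0.129). Psmf1, which encodes the inhibitor PI31, had means of 12.2 ± 0.806 and 12.1 ± 1.27 FPKM (SD, n = 3) and was not called (-0.02, limma adjusted p = 0.871). Psme2b, a copy of Psme2, was below the filter of a mean of 1 FPKM, with 0.51, 0.68 and 0.48 FPKM in controls and 1.09, 0.71 and 0.76 FPKM in stone samples, and fragments could be split between these similar genes.

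In the alpha ring, whose subunits form the gate of the core, 1 of 7 genes was called and the median log2 change was -0.03. Psma5 (alpha 5) had 53.7, 50.1 and 47.4 FPKM in controls and 61.6, 58.9 and 57.1 FPKM in stone samples, without overlap. Its log2 change was 0.23 (SE 0.0667, limma adjusted p = 0.0217), but it was -0.02 with median of ratios, and the call was also lost without control 2, control 3, stone 1 or stone 2. Psma3 (alpha 7), with the lowest log2 difference of the ring, had 106, 111 and 102 FPKM in controls and 99.5, 99.2 and 99.3 FPKM in stone samples, with a log2 difference of -0.10 (limma adjusted p = 0.166). The stone values were nearly identical and all lay below the controls. Psma1, Psma2, Psma4, Psma6 and Psma7 overlapped between groups, with log2 differences from -0.09 to 0.07. The testis form Psma8 was near 0, with 0.25, 0.17 and 0.17 FPKM in controls and 0.11, 0.19 and 0.00 FPKM in stone samples, and was not tested.

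The 4 beta subunits without an active site, Psmb1, Psmb2, Psmb3 and Psmb4, all overlapped between groups, and limma called 0, also at an unadjusted p below 0.05. Psmb2 (beta 4), with the highest log2 difference of the 4, had 103, 117 and 109 FPKM in controls and 107, 115 and 122 FPKM in stone samples (log2 difference 0.06, limma adjusted p = 0.498). Psmb4 (beta 7), with the lowest log2 difference, had 173, 182 and 157 FPKM in controls and 167, 149 and 147 FPKM in stone samples (-0.14, limma adjusted p = 0.158). Summed over the 14 standard core genes, the level was 1818 ± 133 FPKM in controls and 1723 ± 11.4 FPKM in stone samples (SD, n = 3). As a share of all FPKM, Kap included, these sums were 0.236 to 0.259% in controls and 0.280 to 0.283% in stone samples. The mean sum was thus lower and the share higher in stone samples, and the direction of this sum depends on the scaling. Within a sample the most and the least abundant standard core genes differed 3.38- to 3.78-fold in controls and 2.77- to 2.92-fold in stone samples. Psma5 was the least abundant in all 6 samples, and Psmb3 the most abundant in 5, with Psma4 first in stone sample 1.

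In the 19S base, 6 ATPases unfold the substrate, and 2 of them fell. Psmc4 (Rpt3) had 102, 98.3 and 93.3 FPKM in controls and 80.7, 80.3 and 87.4 FPKM in stone samples, a log2 change of -0.24 (SE 0.0639, limma adjusted p = 0.0154). Psmc2 (Rpt1) had 86.1, 90.3 and 77.5 FPKM in controls and 72.6, 71.0 and 72.6 FPKM in stone samples, a log2 change of -0.23 (SE 0.0689, limma adjusted p = 0.0257). Neither gene overlapped between groups, but with equal sums the changes were 0.04 and 0.05. The Psmc4 call was lost without control 1 or stone 2, and the Psmc2 call without control 1, control 2 or any 1 stone sample. Psmc5 (Rpt6), with the highest log2 difference of the ATPases, had 87.9, 93.5 and 81.5 FPKM in controls and 83.4, 85.0 and 89.4 FPKM in stone samples, which overlap (-0.03, limma adjusted p = 0.758). Psmc1, Psmc3 and Psmc6 were not called, with log2 differences from -0.10 to -0.03.

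Of the 11 non-ATPase cap genes, Psmd8 rose and Psmd14 fell. Psmd8 (Rpn12), a lid subunit, had 115, 127 and 109 FPKM in controls and 146, 135 and 143 FPKM in stone samples, with no overlap. Its log2 change was 0.28 (SE 0.0731, limma adjusted p = 0.0155), and 0.02 with median of ratios, and the call was also lost without control 1. Psmd14 (Rpn11), the deubiquitinase that removes the chain from the substrate, had 48.1, 46.5 and 44.5 FPKM in controls and 38.8, 42.0 and 42.4 FPKM in stone samples. These did not overlap either, and the log2 change was -0.17 (SE 0.0626, limma adjusted p = 0.0478), with 0.10 under equal sums.

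The Psmd14 call was lost without control 1, control 2 or any 1 stone sample. Psmd14 was the least and Psmd8 the most abundant cap gene in all 6 samples, and the ratio of the latter to the former was 2.40 to 2.72 in controls and 3.21 to 3.78 in stone samples. As Psmd8 rose and Psmd14 fell, each without overlap, these ratios could not overlap between groups, so their separation is no further support. The ratios cancel any factor applied to a whole sample. On the log2(FPKM + 1) scale their difference was 0.45 as deposited and 0.61 with quantile normalization. Psmd12 (Rpn5), with 57.2, 54.0 and 53.9 FPKM in controls and 49.3, 49.9 and 50.4 FPKM in stone samples, was apart but missed the threshold (-0.14, limma adjusted p = 0.0603). The other 8, Psmd1, Psmd2, Psmd3, Psmd4, Psmd6, Psmd7, Psmd11 and Psmd13, overlapped between groups, with log2 differences from -0.09 to 0.02.

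Of the 7 assembly chaperones, which help build the particle and leave it, 1 was called. Psmg3 had 8.63, 10.1 and 8.50 FPKM in controls and 10.9, 11.8 and 10.5 FPKM in stone samples, with a log2 change of 0.26 (SE 0.0875, limma adjusted p = 0.0377). The margin between groups was narrow, and the call was lost in 9 of 15 alternatives, including without control 1, control 3 or any 1 stone sample, and the sign turned with quantile normalization (-0.02). Psmg4 had 21.2, 35.3 and 24.3 FPKM in controls and 38.9, 30.4 and 40.1 FPKM in stone samples, with a log2 difference of 0.45 (SE 0.189, limma adjusted p = 0.0779). Control sample 2 lay inside the stone range, and the gene was called higher without it. Psmg1 was apart and not called at 0.16 (limma adjusted p = 0.0586), and was called without stone sample 3.

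The remaining core chaperone Psmg2, with the lowest log2 difference of its role, had 22.8, 20.3 and 20.5 FPKM in controls and 18.8, 20.8 and 20.7 FPKM in stone samples, which overlap (-0.07, limma adjusted p = 0.423). For the chaperones of the 19S base, Psmd9 had 11.0, 12.7 and 10.3 FPKM in controls and 13.2, 12.3 and 13.0 FPKM in stone samples (0.17, limma adjusted p = 0.130), and was called higher without control 2. Psmd5 had 30.0, 32.8 and 32.1 FPKM in controls and 31.6, 33.7 and 35.2 FPKM in stone samples (0.08, limma adjusted p = 0.335). Both pairs of groups overlapped, as did those of Psmd10, known as gankyrin (0.11, limma adjusted p = 0.359). The members that are not subunits were not called either: Psme3ip1 had a log2 difference of 0.14 (limma adjusted p = 0.0983) and Psmc3ip one of 0.07 (0.706).

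The lists that follow are read beside all tested genes, of which 43.5% were called higher and 13.9% lower with a median of 0.21 as deposited, and 22.5% higher and 26.2% lower with median of ratios. Genes that work with the proteasome but fall outside the name rule were mixed. Of 17 tested partners, 6 were called higher and 3 lower, with a median log2 change of 0.07, and with median of ratios 1 higher and 6 lower, so the share called higher was below that of all genes in both. The ubiquilin shuttle Ubqln4 rose from 20.1 ± 0.646 to 29.8 ± 2.20 FPKM (0.55, limma adjusted p = 0.000781), Ubqln2 changed by 0.37 and the cap deubiquitinase Uchl5 by 0.32. Fbxo7, which binds Psmf1, fell from 53.2 ± 2.96 to 36.7 ± 1.79 FPKM (-0.52, limma adjusted p = 0.000733). Pomp, the chaperone that completes core assembly, fell from 154 ± 12.5 to 131 ± 3.58 FPKM (-0.22, limma adjusted p = 0.0315), a change that was 0.05 with equal sums.

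Among 14 genes that regulate proteasome transcription, 9 were called higher and 1 lower, with a median of 0.37, and with median of ratios 6 higher and 3 lower. Nfe2l2, which encodes NRF2, the factor that acts through antioxidant response elements, rose from 47.8 ± 3.13 to 92.0 ± 10.8 FPKM (0.92, limma adjusted p = 0.000332). Its partner Maff rose from 2.49 ± 0.417 to 10.6 ± 0.674 FPKM (1.74) and the endoplasmic reticulum ubiquitin ligase Syvn1 from 17.1 ± 0.522 to 29.1 ± 0.309 FPKM (0.74). Vcp, the segregase that releases the factor NRF1 from the membrane, fell from 163 ± 4.10 to 143 ± 2.18 FPKM (-0.19, limma adjusted p = 0.0196), but changed by 0.09 with equal sums. Nfe2l1, which encodes NRF1, named here after its value was seen, rose by 0.26 (limma adjusted p = 0.0238) and by 0.01 with median of ratios, where it was not called. Of the 6 members whose windows hold the antioxidant motif, Psme4 was called lower and Psmb5, Psmb6, Psmc6, Psmd9 and Psmd12 were not called as deposited. With median of ratios Psme4, Psmb5, Psmb6, Psmc6 and Psmd12 were called lower, and with equal sums Psmd9 was called higher. Among genes with a window, the motif was found in 14.3% of members and in 16.9% of tested genes.

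Genes of MHC class I processing, which use the peptides of the immunoproteasome, were mostly higher. Of 12 tested, 10 were called higher and 1 lower, with a median of 0.54, and with median of ratios 7 were higher and 1 lower. H2-K1 rose from 99.0 ± 7.49 to 169 ± 7.66 FPKM (0.76), the transporter subunit Tap2 from 6.73 ± 0.327 to 11.2 ± 0.163 FPKM (0.66) and B2m from 448 ± 25.5 to 684 ± 10.1 FPKM (0.61). H2-T23, a nonclassical class I gene, fell from 62.8 ± 0.934 to 44.0 ± 3.01 FPKM (-0.51). In this group, too, Tap1 was the 1 tested gene that was not called.

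Interferon response genes were split. Of 18 tested, 10 were called higher and 2 lower, with a median of 0.41, and with median of ratios 6 higher and 2 lower. The share called higher was above that of all genes in both, a difference that was not tested. The interferon gamma receptor genes Ifngr1 and Ifngr2 rose, the former from 16.2 ± 0.204 to 45.6 ± 0.437 FPKM (1.44) and the latter from 14.3 ± 0.632 to 31.1 ± 2.14 FPKM (1.07). The chemokine Cxcl10 rose from 5.51 ± 0.594 to 13.9 ± 1.80 FPKM (1.20). The interferon-inducible GTPases Igtp and Iigp1 fell from 10.1 ± 2.04 to 6.86 ± 0.419 FPKM (-0.48) and from 4.76 ± 0.550 to 3.50 ± 0.375 FPKM (-0.36). The transcription factor Irf1, named here after its value was seen, rose by 1.41 (limma adjusted p = 0.000372).

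Of 14 ubiquitin genes and enzymes, 6 were called higher and 2 lower, with a median of 0.26, and with median of ratios 1 was higher and 4 were lower. As deposited these shares are near those of all genes, so the counts are no result about this list. The polyubiquitin gene Ubb fell from 1442 ± 71.3 to 1125 ± 108 FPKM (-0.36). The conjugating enzymes Ube2g2 and Ube2d2a rose by 0.54 and 0.34, and Rps27a, which encodes ubiquitin fused to a ribosomal protein, by 0.49.

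Markers of several other cell types differed between the groups in which Psmb8 and Psmb10 differed. Of 14 leukocyte and macrophage markers 13 were called higher and 0 lower by limma, with 0 lower at an unadjusted p below 0.05 too, and their summed level was 117 to 130 FPKM in controls and 324 to 734 FPKM in stone samples, with none at 0 in every sample. Neutrophil markers summed to 1.93 to 5.05 FPKM in controls and 18.8 to 27.9 FPKM in stone samples, with 3 of 3 tested called higher. The defining neutrophil marker Ly6g was at 0 in all controls and in stone samples 1 and 2 and at 0.10 FPKM in stone sample 3. All 6 T cell markers and all 4 B cell markers were below the filter, with sums of 1.87 to 2.17 and 1.65 to 3.16 FPKM in controls and 1.36 to 2.06 and 1.22 to 1.95 FPKM in stone samples. Injured tubule markers summed to 7.97 to 13.4 FPKM in controls and 557 to 1273 FPKM in stone samples, and fibroblast markers to 22.9 to 31.7 and 78.7 to 139 FPKM, with all 4 genes of each list called higher. Endothelial markers had 2 of 4 called higher (44.9 to 78.2 FPKM in controls, 70.1 to 120 FPKM in stone samples) and podocyte markers 3 of 4 (39.8 to 56.8 and 62.6 to 78.1 FPKM). Thick limb and distal tubule markers had 2 of 4 called lower, Slc12a1 and Pvalb (1961 to 2337 and 1271 to 2110 FPKM), and collecting duct markers 1 of 5 higher and 2 lower (176 to 189 and 206 to 411 FPKM).

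The leukocyte sum was highest in stone sample 2, at 734 FPKM, whereas Psmb8 and Psmb10 were highest in stone sample 3. Stone sample 1 was the lowest of the stone samples in the leukocyte sum, at 324 FPKM, and also in Psmb8, Psmb10 and Psme1. Psme2 was lowest in stone sample 2, at 72.2 FPKM. In stone samples 1, 2 and 3 the injured tubule sum was 557, 675 and 1273 FPKM and the endothelial sum 70.1, 88.45 and 120 FPKM. In the same order the fibroblast sum was 78.7, 139 and 126 FPKM and the neutrophil sum 27.9, 19.4 and 18.8 FPKM. The part of any of these cells in the rise of Psmb8, Psmb10, Psme1 and Psme2 was not tested. In these bulk samples, more cells of a type and more RNA per cell cannot be told apart, nor can fewer cells and less RNA per cell for the genes that fell.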

How the data were processed

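RNA was measured in 6 kidney samples. Libraries were made from TRIzol-extracted total RNA with dUTP in the second strand, per the labels' protocols, and reads were aligned with HISAT2 2.0.4 to GRCm38.p6, as the submitters' processing notes list. The sources used here do not name the gene quantifier or its use of strand. Values are FPKM as deposited by the authors, with no counts, so depth is unknown and no count model was used. A gene was tested if its mean reached 1 FPKM (12319 of 17933), on log2(FPKM + 1), which understates changes of low genes. The test was limma 3.58.1 under R 4.3.3 (lmFit, then eBayes with trend), two-sided, Benjamini-Hochberg adjusted across the genes tested, called below 0.05, after a check on simulated data. Subunit ratios were compared by an exact permutation test. The members and lists were chosen with earlier results of these data known. In each role the tested members with the highest and lowest change are given in full, and from each other list up to 3 genes called higher and 3 called lower with the smallest p, except a few that are not reported here. Promoters and coordinates are from RefSeq (GRCm38.p6) and gene overlaps from GENCODE, matched by symbol, with a promoter window for 42 of the 50 members.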

Additional observations from a re-analysis of the deposited data

How the results depend on the processing

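The 15 alternatives changed the scaling, pseudocount, filter, sample weights or replicate block or left out 1 sample. As deposited, 7 members were higher and 5 lower. Median-of-ratios scaling gave 2 higher and 29 lower with a median log2 change of -0.27, and equal FPKM sums 35, 0 and 0.25. Equal sums without Kap gave a median of -0.05. Array weights gave 12 higher and 9 lower, and quantile normalization 8 lower. Leaving out 1 sample gave 2 to 6 lower. With 2 samples left in a group, limma pools the spread over both groups. With the replicate number as a block, 7 were higher and 3 lower (Psmc2 and Psmd14 lost their calls). Same-numbered samples did not deviate together (correlations of deviations 0.01, -0.22 and -0.04), and not every sample correlated best with its own number. The labels do not say whether same-numbered samples were handled together, and these correlations cannot exclude it.

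A change of sign is given where the gene was called under either setting. With median of ratios Psmd1 came to -0.23, Psmd4 to -0.24, Psma5 to -0.022 and Psmd7 to -0.25, and with quantile normalization Psmg3 to -0.017. With equal sums the signs turned for Psma3 (0.18), Psma1 (0.19), Psma4 (0.25), Psma6 (0.22), Psma2 (0.28), Psmb1 (0.21), Psmc4 (0.036), Psmc2 (0.050), Psmc5 (0.25), Psmc3 (0.25), Psmc1 (0.18), Psmd11 (0.25), Psmd6 (0.24), Psmd14 (0.10), Psmd2 (0.26), Psmd3 (0.19), Psmd13 (0.26), Psmf1 (0.24), Psmg2 (0.19), Pomp (0.053) and Vcp (0.090). Median of ratios and equal sums differ in the factor applied to each sample, whereas quantile normalization shifts genes by rank. The log2 differences of the within-sample ratios ranged from 1.35 to 1.52 for Psmb10 to Psmb7, 0.63 to 0.81 for Psmb8 to Psmb5 and 0.02 to 0.21 for Psmb9 to Psmb6 when 1 sample was left out. Adding 1 FPKM to both genes gave 1.34, 0.66 and 0.10, and quantile normalization, added after the data were seen, 1.00, 0.29 and -0.26. By the exact permutation test within replicate numbers, two-sided, p was 0.25, 0.25 and 0.75, with 0.25 the smallest possible. The depth behind the FPKM is unknown, so counting error could not be set beside the spread of genes near 5 FPKM such as Psmb9.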
